A study of Mus musculus with 12 samples.

Results

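The genes described here are 39 genes of cardiac macrophages and their relatives, chosen by name. They comprise 4 genes that mark recruited monocyte-derived cells (Ccr2, Itgam, Chil3 and Plac8) and 5 that mark macrophages resident in the healthy heart (Lyve1, Folr2, Timd4, Cd163 and Retnla). The other 30 encode a growth factor and receptors, leukocyte and myeloid identity proteins, Fc receptors, pattern recognition receptors, clearance receptors and lysosomal proteins. Each gene was read from a probe set annotated to that gene alone, and 39 of 39 had one, out of 19938 genes measured in all. The study set out to find genes enriched in the right heart under chronic obstruction of its outflow, and measured total RNA on Affymetrix arrays.

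Hearts came from male C57BL/6 mice with no transgene named in the labels. Right ventricles (RV) were taken 1, 3 and 6 weeks after a clip was closed around the pulmonary artery (PAC), at ages of 13, 15 and 18 weeks, and from sham mice at 3 weeks and 15 weeks of age. Left ventricles (LV) were taken at 3 weeks and 15 weeks of age after the aorta was clipped (TAC) and from sham mice of the same age. Hearts were perfused with buffer before the chambers and septum were cut apart. Each of the 6 groups held 2 arrays. Sham RV existed at 3 weeks alone, so the comparisons at 1 and 6 weeks also differ in age and in time since the operation, which cannot be told apart from the clip. Neither the number of animals behind an array nor any sharing of hearts by the sham RV and sham LV samples is stated in the labels, so p-values here measure spread among these arrays, which may be technical. Whole ventricle was measured, so more cells of a type and more RNA per cell cannot be told apart.

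Resident cardiac macrophages are seeded before birth and largely renew themselves in place, and they carry Lyve1, Folr2 and Timd4. Inflammatory monocytes enter from the blood by way of the chemokine receptor Ccr2, attach through the integrin that contains Itgam, and can become macrophages in the tissue. Growth and survival of macrophages depend on the receptor Csf1r and its ligand Csf1, and the transcription factor Spi1, also called PU.1, sets much of the myeloid programme.

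All values are log2 levels as deposited, and a difference of 1 is a 2-fold change. Differences are given with the standard error from limma, and a gene is said to have risen or fallen where its p-value was under 0.05 after Benjamini-Hochberg adjustment across the 19938 genes. The error draws on the spread of all 6 groups and is not the spread of the groups compared. For Ccr2 the SD was 0.96 in PAC at 1 week and 0.06 in sham RV. A level from one probe set cannot be set against that of another. Array medians lay between 6.32 and 6.4, and the number of arrays limits the precision. As a mark of dim signal, the median of probe sets with no listed gene was 5.65 to 5.79. Chil3 and Plac8 lay below it on 12 of 12 arrays, Clec4d on 11, Itgax on 6, Retnla on 2, and Aif1 and Clec7a on 1 each, so changes of Chil3 and Plac8 are changes of dim signals. The tissue carried its defining markers, since the mean of 6 cardiomyocyte genes, Myh6, Tnnt2, Tnni3 and Actc1 among them, was 13.41 to 13.57 on every array. Nppa, the atrial natriuretic peptide gene that marks loaded ventricle, was 2.48 ± 0.38 (log2 difference ± SE) above sham RV in PAC at 1 week (adjusted p = 0.0073). It was 2.49 above sham RV at 3 weeks (adjusted p = 0.018) and 2.47 at 6 weeks (adjusted p = 0.01). In TAC it was 0.33 ± 0.38 above sham LV (adjusted p = 0.98).

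Some arrays stood apart in markers of atrial muscle. The mean level of Myl7, Myl4, Sln and Bmp10 was 8.88 and 10.23 in PAC at 1 week, 7.66 and 9.30 in PAC at 3 weeks, 7.40 and 7.83 in PAC at 6 weeks, and 6.67 and 5.86 in sham RV. It was 7.55 and 7.29 in TAC and 7.12 and 8.53 in sham LV. Bmp10, a growth factor made by atrial muscle, had 8.55 and 10.50 in PAC at 1 week, 4.52 and 8.79 in PAC at 3 weeks, 4.79 and 4.52 in PAC at 6 weeks, and 4.28 and 4.64 in sham RV. The 3 arrays with high Bmp10 were therefore both arrays of PAC at 1 week and array 2 of PAC at 3 weeks. All 4 markers rose at 1 week, where no array had low Bmp10, and their part in the macrophage results was not tested. Sham LV array 2 had Myl7 at 10.90 without high Bmp10 (4.43), and 8 of the 39 genes were higher there than on sham LV array 1. Nppa was 13.00 on sham LV array 2, against 12.05 on array 1, and 10.98 and 10.68 in sham RV. The part of atrial muscle in the Nppa differences was not tested, so these differences are not a measure of load alone.

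At 1 week after the clip, much of the macrophage set stood higher in the right ventricle. Of the 39 genes, 21 rose (53.8%) and 0 fell. Over all genes tested, 18.4% passed, 9.57% higher and 8.86% lower, and with cyclic loess scaling the 2143 genes that passed split into 1402 higher and 741 lower. The increases ran from 0.32 to 1.39 on the log2 scale, or 1.25-fold to 2.62-fold. The median change was 0.61 for the 39 genes and -0.05 for all genes. In 36 of the 39 genes the PAC mean was above the sham mean, against 42.9% of all genes. In 31 both PAC arrays lay above both sham arrays, against 26.4% of all genes. In 2, Timd4 and Retnla, both lay below, against 36.7% of all genes.

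The arrays of PAC at 1 week were far apart. Array 2 was higher than array 1 in 37 of the 39 genes, against 47.5% of all genes, by a median of 0.52. Each of the 21 genes that rose was already above both sham arrays on array 1, and each changed more on array 2. Without PAC 1 week array 2, the number that rose was 2, Ccr2 (0.71, adjusted p = 0.038, limma) and Msr1 (0.85, adjusted p = 0.037). Leaving out sham RV array 1 gave 2 (Msr1 and Mrc1), sham RV array 2 also 2 (Msr1 and Cx3cr1), and PAC 1 week array 1 gave 27. Over all genes the count of 3675 became 317 without PAC 1 week array 2, 1090 and 227 when sham RV array 1 or 2 was left out, and 4557 with PAC 1 week array 1 left out. Msr1 thus passed with any 1 of the 12 arrays left out, but with a fit to only the 4 arrays compared its adjusted p was 0.053 and 0 of the 39 genes passed.

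**Figure D1:**
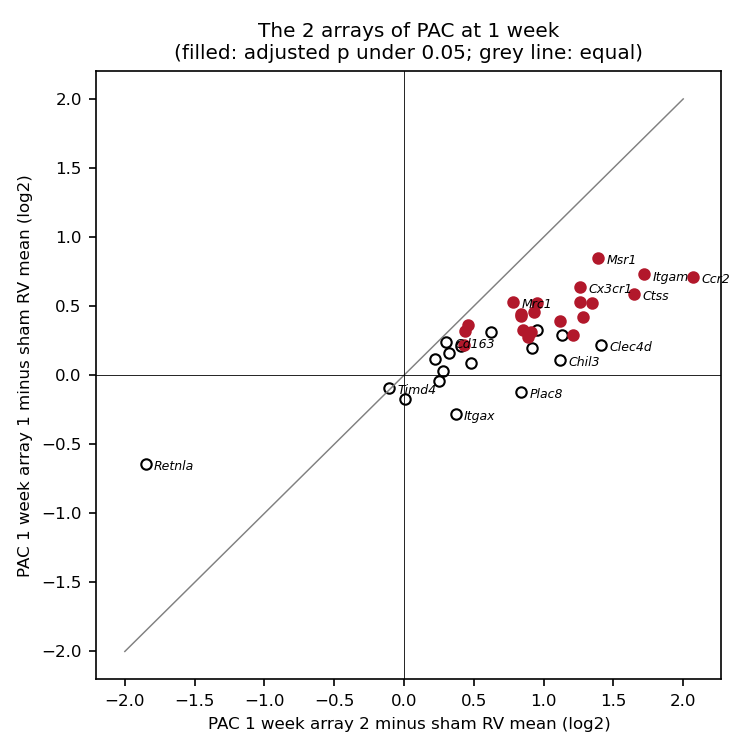
Log2 difference of each PAC 1 week array from the mean of the sham RV arrays, array 2 on the x axis and array 1 on the y axis, 1 point for each of the 39 genes, filled where the adjusted p was under 0.05. The grey line marks equal values. The 21 filled points lie above 0 on both axes and below the line, and Ccr2 is furthest to the right, at 2.07 on array 2 and 0.71 on array 1.

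**Figure D2:**
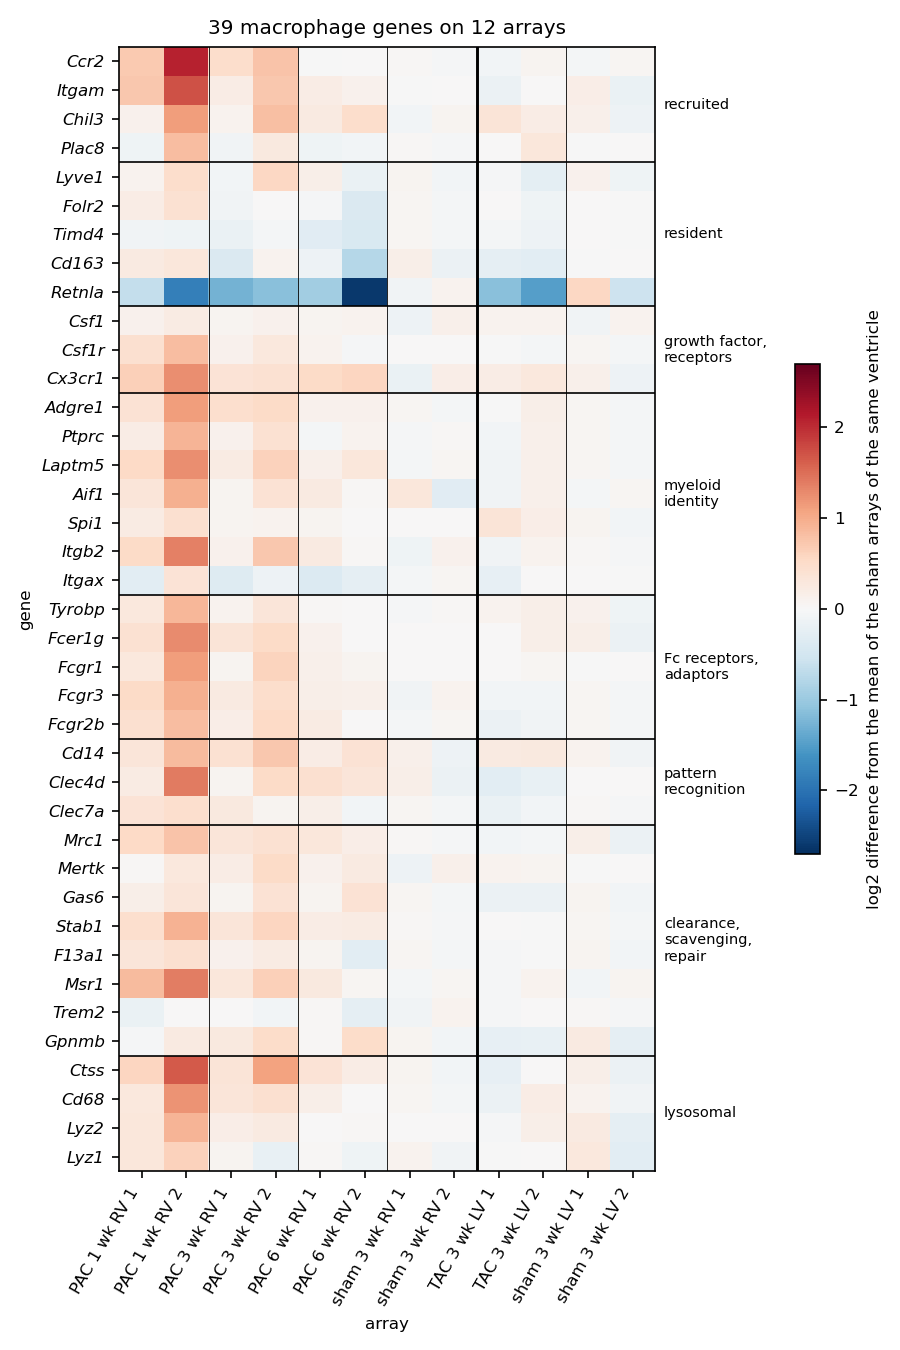
Log2 difference of every array from the mean of its own sham chamber for the 39 genes, grouped by role, with the colour scale in log2 units. The columns of PAC at 1 week, above all array 2, carry most of the increases, and Retnla is below sham on all 6 PAC arrays and both TAC arrays.

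Among the recruited genes, Ccr2 and Itgam rose at 1 week. Ccr2, the receptor for the monocyte chemokines, had levels of 7.26 and 8.62 in PAC at 1 week, against 6.59 and 6.51 in sham RV. Both PAC arrays lay above both sham arrays, and the difference of 1.39 ± 0.31 (2.62-fold, adjusted p = 0.0196) was the largest increase in the set. Itgam, the CD11b chain of an adhesion integrin on monocytes and neutrophils, had 7.39 and 8.37 in PAC at 1 week, against 6.65 and 6.66 in sham RV. The groups did not overlap, and Itgam rose by 1.23 ± 0.27 (2.34-fold, adjusted p = 0.0178). Chil3, a chitinase-like secreted protein of mouse macrophages, had dim levels of 2.91 and 3.92 in PAC at 1 week, against 2.73 and 2.87 in sham RV. Both PAC arrays were above sham, array 1 barely, and the difference of 0.61 ± 0.29 did not pass (adjusted p = 0.15). Plac8, expressed in inflammatory monocytes, had 4.01 and 4.97 in PAC at 1 week, against 4.16 and 4.11 in sham RV. The groups overlapped for Plac8, since array 1 lay below both sham arrays (0.36 ± 0.24, adjusted p = 0.299).

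Of the 5 resident genes, 0 passed at 1 week, and 2 of them lay below sham on both arrays, as did 36.7% of all genes. Lyve1, a hyaluronan receptor shared with lymphatic endothelium, had 8.54 and 8.94 in PAC at 1 week, against 8.53 and 8.38 in sham RV. Folr2, a folate receptor, had 8.06 and 8.26 in PAC at 1 week, against 7.91 and 7.78 in sham RV. Both Lyve1 and Folr2 were above sham on each PAC array, but by 0.28 (adjusted p = 0.33) and 0.31 ± 0.12 (adjusted p = 0.0969). Cd163, the haemoglobin scavenger receptor, had 8.55 and 8.61 in PAC at 1 week, against 8.47 and 8.15 in sham RV, a difference of 0.27 that did not pass (adjusted p = 0.339). Timd4, a phosphatidylserine receptor for dying cells, had 6.45 and 6.43 in PAC at 1 week, against 6.60 and 6.47 in sham RV. Both PAC arrays were below sham for Timd4, by little, and the difference of -0.10 did not pass (adjusted p = 0.422). Retnla, a secreted protein of mouse macrophages under interleukin-4 signalling, had 6.72 and 5.51 in PAC at 1 week, against 7.26 and 7.46 in sham RV. Its difference of -1.24 ± 0.52 rested on widely spaced arrays and did not pass (adjusted p = 0.109).

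**Figure D3:**
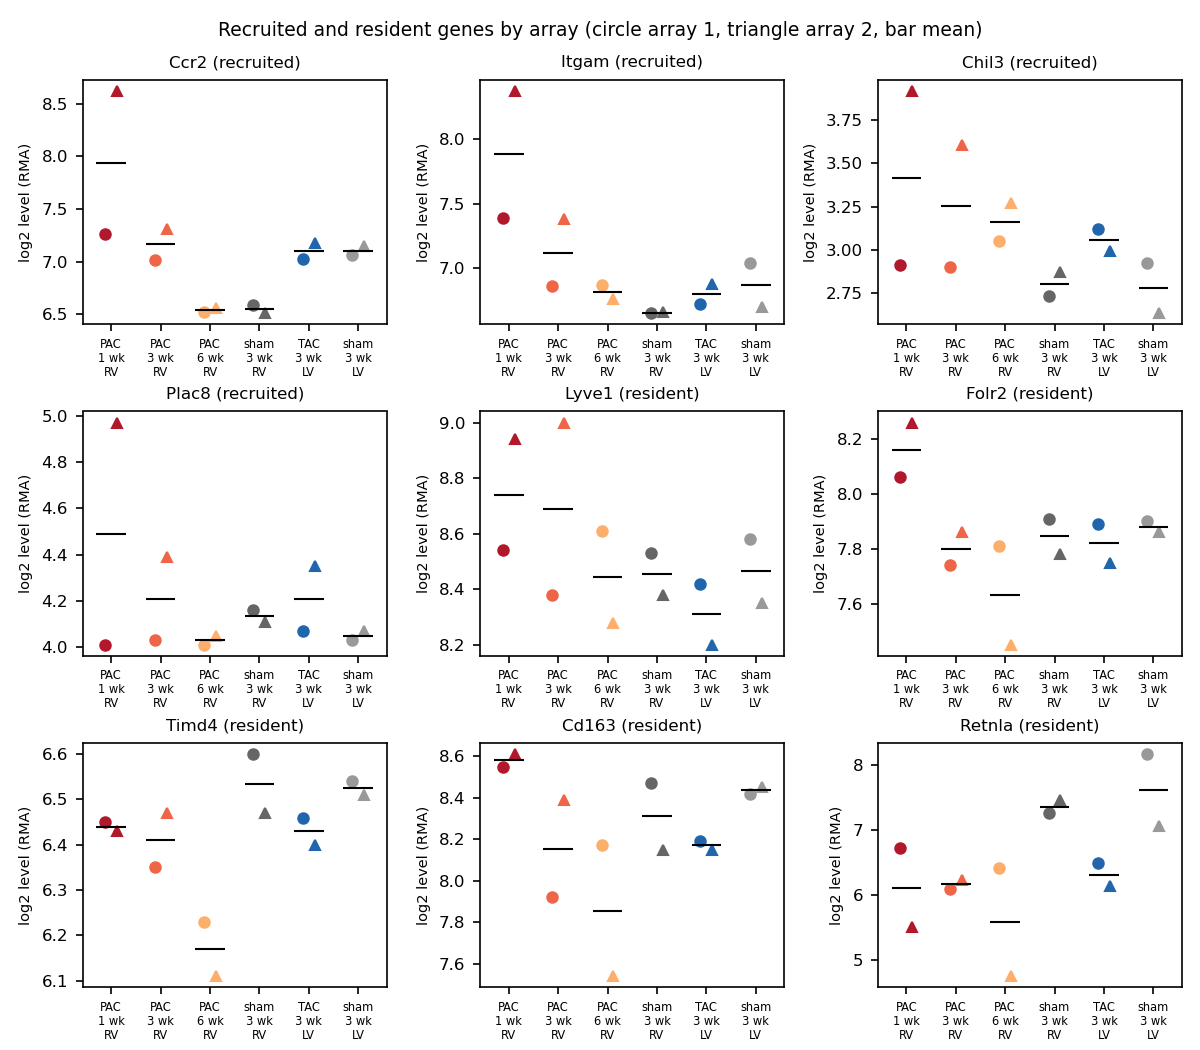
Log2 level of the 4 recruited and 5 resident genes on every array by group, circle for array 1, triangle for array 2 and bar for the mean of 2 arrays, with a separate y axis for each gene that does not start at 0. Ccr2 and Itgam have their highest means in PAC at 1 week, Timd4 is lowest in PAC at 6 weeks, and Retnla is highest in the sham groups.

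The promoters of 4 of these genes are shown for the letters they share or lack. RefSeq promoter windows on GRCm38.p6 were at hand for 31 of the 39 genes, and the 250 bases before each start were searched on both strands for GAGGAA (core of the PU.1 motif), TTGCNNAA (C/EBP) and TGCTGA (MAF). GAGGAA was found in 16 of the 31 (51.6%), against 23.1% of the promoters of 27025 genes. TTGCNNAA was found in 4 (12.9%), against 9.55%, and TGCTGA in 9 (29%), against 15.8%. These are matches of letters, not sites. Itgam, which rose at 1 week, lies at chr7:128062390-128062639, and Mrc1, a mannose receptor that also rose, at chr2:14229164-14229413. Timd4, which fell at 6 weeks, lies at chr11:46810549-46810785, and Retnla, which was low on every array after obstruction, at chr16:48842359-48842608. All 4 windows are on the plus strand, written 5′ to 3′, and capitals mark matches of the 3 motifs on either strand, so that GAGGAA on the other strand reads as its reverse complement. The Timd4 window holds 237 bases and ends 13 bases before the start.
Itgam: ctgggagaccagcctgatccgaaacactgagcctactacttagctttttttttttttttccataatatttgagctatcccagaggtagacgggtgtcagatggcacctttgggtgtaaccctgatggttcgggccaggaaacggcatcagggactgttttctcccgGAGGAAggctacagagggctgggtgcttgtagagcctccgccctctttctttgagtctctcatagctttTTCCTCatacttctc
Mrc1: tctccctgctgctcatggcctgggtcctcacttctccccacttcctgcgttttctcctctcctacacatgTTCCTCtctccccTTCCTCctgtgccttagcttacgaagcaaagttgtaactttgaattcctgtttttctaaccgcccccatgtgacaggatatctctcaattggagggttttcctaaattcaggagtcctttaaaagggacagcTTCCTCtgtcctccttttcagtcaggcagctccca
Timd4: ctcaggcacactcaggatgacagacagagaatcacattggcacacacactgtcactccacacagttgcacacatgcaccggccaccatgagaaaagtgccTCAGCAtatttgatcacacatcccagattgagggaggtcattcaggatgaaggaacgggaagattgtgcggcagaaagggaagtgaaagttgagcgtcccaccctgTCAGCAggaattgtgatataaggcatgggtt
Retnla: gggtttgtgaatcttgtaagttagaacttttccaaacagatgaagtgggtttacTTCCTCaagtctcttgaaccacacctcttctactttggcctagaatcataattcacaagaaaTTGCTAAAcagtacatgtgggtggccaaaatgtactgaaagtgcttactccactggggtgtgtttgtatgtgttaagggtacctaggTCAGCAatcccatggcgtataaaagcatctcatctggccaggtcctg
The Itgam window holds GAGGAA at 84 to 79 and, on the other strand, at 15 to 10 bases before the start. The Mrc1 window holds it 3 times, each on the other strand. The Timd4 window holds TGCTGA 2 times on the other strand and no GAGGAA, and the Retnla window holds 1 match of each motif. Genes that rose were found both with and without GAGGAA. Ccr2, which rose most, had no match of any of the 3 motifs, and Cx3cr1, Fcer1g, Fcgr2b and Lyz2 rose without GAGGAA. Plac8 and Ptprc held GAGGAA and did not pass, and Chil3, which did not pass either, held TGCTGA 2 times and no GAGGAA.

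Of the growth factor Csf1 and the receptors Csf1r and Cx3cr1, the receptors rose. Csf1r, the receptor that macrophages need to survive, had 9.04 and 9.43 in PAC at 1 week, against 8.60 and 8.59 in sham RV, and rose by 0.64 ± 0.13 (adjusted p = 0.0139). Cx3cr1, the fractalkine receptor of patrolling monocytes and tissue macrophages, had 7.61 and 8.22 in PAC at 1 week, against 6.79 and 7.13 in sham RV, and rose by 0.95 ± 0.18 (1.94-fold, adjusted p = 0.0123). For both receptors the groups did not overlap. Csf1, the ligand of Csf1r, had 8.56 and 8.66 in PAC at 1 week, against 8.30 and 8.58 in sham RV, and these ranges overlapped. Csf1 did not pass.

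Of the 7 leukocyte and myeloid identity genes, 4 rose at 1 week. Laptm5, a lysosomal membrane protein of blood cells, had 8.96 and 9.69 in PAC at 1 week, against 8.38 and 8.48 in sham RV (0.90 ± 0.21, adjusted p = 0.0205). Adgre1, the F4/80 antigen of mouse macrophages, had 7.99 and 8.71 in PAC at 1 week, against 7.64 and 7.55 in sham RV (0.76 ± 0.18, adjusted p = 0.0228). Itgb2, the beta chain that pairs with Itgam, had 7.26 and 8.10 in PAC at 1 week, against 6.62 and 6.86 in sham RV (0.93 ± 0.25, adjusted p = 0.0326). In each of these 3 genes both PAC arrays lay above sham and array 2 was well above array 1. Spi1 itself rose least, by 0.32 ± 0.10 (adjusted p = 0.0455), and passed under 3 of 17 alternatives. Ptprc, the CD45 antigen of leukocytes, and Aif1, an actin-binding protein of macrophages, were above sham on both arrays and did not pass (adjusted p = 0.0674 and 0.0677). Itgax, the CD11c chain common on dendritic cells, had 5.60 and 6.25 in PAC at 1 week, against 5.83 and 5.93 in sham RV, so that the groups overlapped.

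Fc receptors, which bind antibody-coated targets, rose together with their adaptors in 4 of 5 genes. Fcgr3, an activating receptor, had 7.39 and 7.82 in PAC at 1 week, against 6.79 and 6.97 in sham RV (0.73 ± 0.14, adjusted p = 0.0121). Fcgr2b, the inhibitory receptor, had 7.62 and 8.04 in PAC at 1 week, against 7.13 and 7.26 in sham RV (0.64 ± 0.15, adjusted p = 0.0233). Fcer1g, the signalling chain of activating Fc receptors, had 8.60 and 9.45 in PAC at 1 week, against 8.18 and 8.17 in sham RV (0.85 ± 0.22, adjusted p = 0.0284). The groups did not overlap in these 3 genes, whose activating and inhibitory members moved the same way. Fcgr3 and Fcgr2b are close in sequence, and probes may read part of each other's transcript. Tyrobp, the adaptor DAP12 that serves Trem2 among others, rose by 0.58 ± 0.17 (adjusted p = 0.0382), and Fcgr1, the high-affinity receptor, just missed the threshold (adjusted p = 0.0541).

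Pattern recognition receptors rose in 2 of 3 genes. Clec7a, the receptor dectin-1 for fungal glucan, had 6.16 and 6.26 in PAC at 1 week, against 5.86 and 5.74 in sham RV. Both PAC arrays lay close together above sham, and Clec7a rose by 0.41 ± 0.11 (adjusted p = 0.0285). Cd14, the co-receptor for lipopolysaccharide, rose by 0.59 ± 0.17 (adjusted p = 0.0396) and passed under 9 of 17 alternatives. Clec4d, another lectin receptor of myeloid cells, had dim levels of 4.88 and 6.07 in PAC at 1 week, against 4.82 and 4.51 in sham RV, and did not pass (adjusted p = 0.0735).

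Of the 8 clearance and repair genes, 4 rose, and they were scavenger receptors and a transglutaminase. Msr1, the class A scavenger receptor, had 6.96 and 7.50 in PAC at 1 week, against 6.06 and 6.16 in sham RV. It rose by 1.12 ± 0.17 (2.18-fold), with the smallest adjusted p of the set (0.00708). Mrc1, the mannose receptor CD206, had 9.26 and 9.51 in PAC at 1 week, against 8.77 and 8.68 in sham RV, and rose by 0.66 ± 0.12 (adjusted p = 0.011). Stab1, the receptor stabilin-1 for altered lipoproteins and matrix proteins, had 8.97 and 9.43 in PAC at 1 week, against 8.53 and 8.48 in sham RV, and rose by 0.69 ± 0.14 (adjusted p = 0.0146). All 3 receptors were separated from sham on both arrays. F13a1, the catalytic chain of clotting factor XIII, rose by 0.38 ± 0.12 (adjusted p = 0.0499) and passed under 4 of 18 alternatives. Mertk, which takes up dying cells, its ligand Gas6, the lipid receptor Trem2 and the glycoprotein Gpnmb did not pass, and Trem2 had 6.52 and 6.70 in PAC at 1 week, against 6.59 and 6.77 in sham RV.

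Lysosomal genes rose in 3 of 4, and for Cd68 and Lyz2 the call seldom held under the alternatives. Ctss, the protease cathepsin S, had 9.21 and 10.26 in PAC at 1 week, against 8.68 and 8.54 in sham RV, and rose by 1.12 ± 0.30 (adjusted p = 0.0332). Cd68, a lysosomal glycoprotein of macrophages, rose by 0.75 ± 0.24 (adjusted p = 0.0498), and Lyz2, the lysozyme of myeloid cells, by 0.61 ± 0.19 (adjusted p = 0.0462). Cd68 passed under 3 of 18 alternatives and Lyz2 under 5 of 18, against 12 of 18 for Ctss. Lyz1, its near-identical copy, was above sham on both arrays without passing, and probes may not tell these lysozymes apart.

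**Figure D4:**
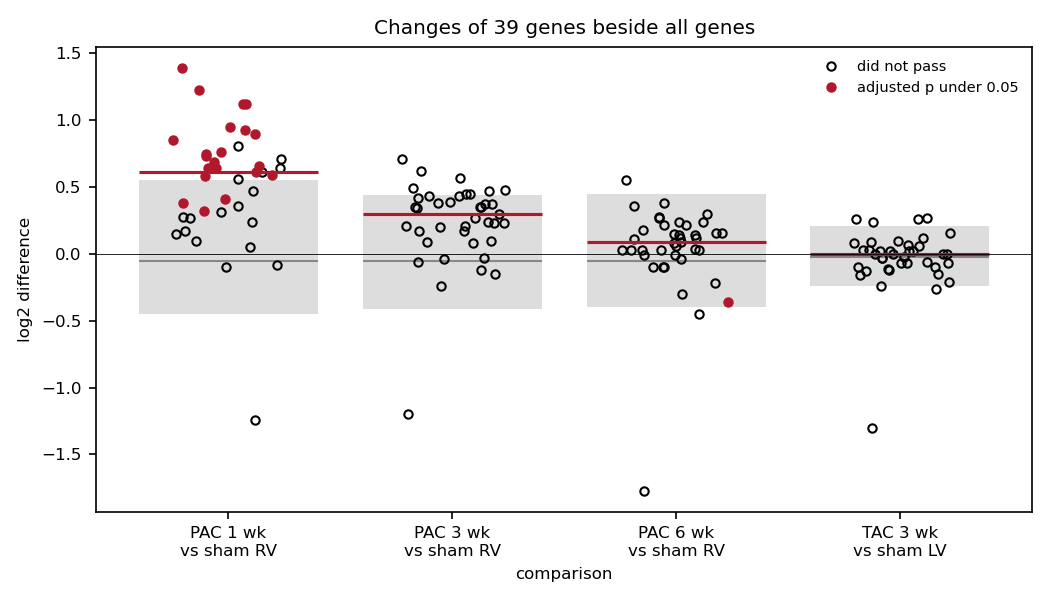
Log2 difference of the 39 genes in PAC at 1, 3 and 6 weeks against sham RV and in TAC against sham LV, 1 point per gene jittered sideways, filled where the adjusted p was under 0.05. Red lines are the medians of the 39 genes, grey bands and lines the range between the 5th and the 95th percentile and the median of all genes. The red line falls from 0.61 at 1 week to 0.09 at 6 weeks, and the lowest point in each column is Retnla.

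Recruited and resident genes were also summarised array by array as the median difference from the sham mean of the same chamber, a description over 4 and 5 genes with no test. In PAC at 1 week the recruited median was 0.41 and 1.42 and the resident median 0.09 and 0.30. In PAC at 3 weeks the recruited median was 0.15 and 0.75 and the resident median -0.18 and 0.01. In PAC at 6 weeks the recruited median was 0.09 and 0.06 and the resident median -0.14 and -0.42. The recruited median thus exceeded the resident one on all 6 PAC arrays, by 0.24 to 1.12. Of the 4 recruited genes, Chil3 and Plac8 were below the mark of dim signal on 12 of 12 arrays. A median of 4 genes is the mean of the middle pair, and on both PAC 1 week arrays that pair held Chil3. On the sham arrays the gap was -0.05 to 0.05, but each sham array is part of the mean it was set against. That narrows its gap, so the sham gaps are no measure for those of the other arrays. All 6 PAC arrays were set against the same sham RV mean. In TAC the recruited median was -0.03 and 0.14 and the resident median -0.06 and -0.26. The recruited median was thus above the resident one on both TAC arrays too, by 0.03 and 0.41. The gap on TAC array 2 was wider than on array 1 of PAC at 1, 3 and 6 weeks (0.32, 0.34 and 0.24). The group medians moved with single arrays, and without PAC 1 week array 2 the recruited median at 1 week was 0.41 and the resident one 0.09, against 0.92 and 0.27 with both arrays.

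**Figure D5:**
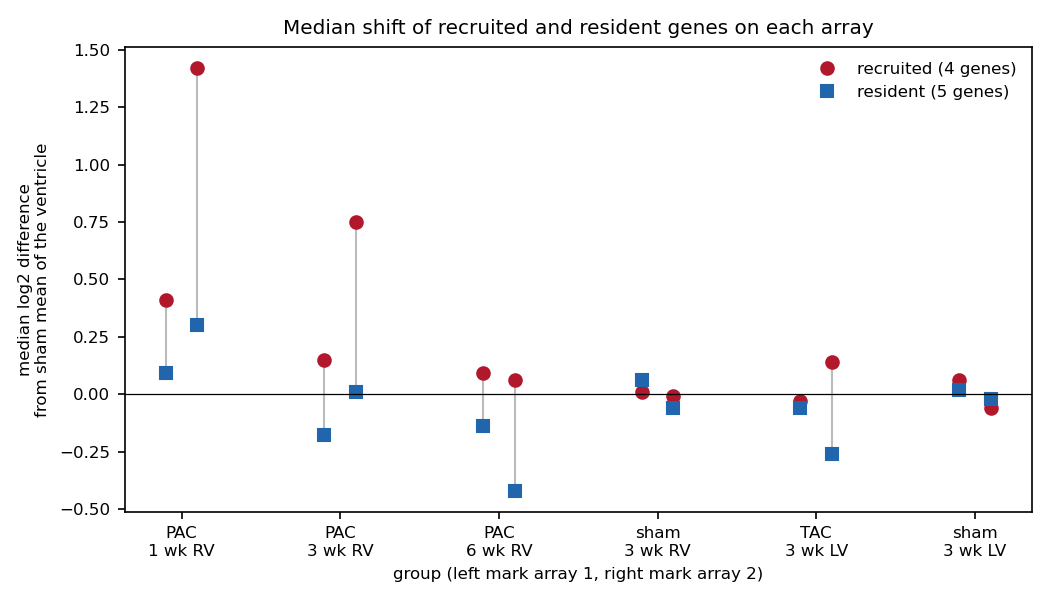
Median log2 difference from the sham mean of the same chamber over the 4 recruited and the 5 resident genes, 1 pair of points per array. Of the recruited genes, Chil3 and Plac8 are dim signals. The recruited median is above the resident one on every PAC array and on both TAC arrays (0.03 and 0.41). The widest gap (1.12) is on PAC 1 week array 2, and resident medians are lowest on PAC 6 week array 2 (-0.42).

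At 3 weeks after the clip, 0 of the 39 genes passed, against 5.76% of all genes (3.22% higher and 2.54% lower), and 10 had an unadjusted p under 0.05 in limma. The median change was 0.30 for the set and -0.05 for all genes, and 32 genes had a PAC mean above sham, against 42% of all genes. In 26 both PAC arrays lay above both sham arrays, against 25.5% of all genes. Cd14 came nearest to the threshold (0.57 ± 0.17, adjusted p = 0.0671), followed by Stab1 (0.45, adjusted p = 0.0746) and Mrc1 (0.37, adjusted p = 0.0775). Ccr2 had 7.02 and 7.31 in PAC at 3 weeks, against 6.59 and 6.51 in sham RV, above sham on both arrays but not past the threshold (0.62 ± 0.31, adjusted p = 0.206). Itgam had 6.86 and 7.38 in PAC at 3 weeks, against 6.65 and 6.66 in sham RV. Retnla had 6.09 and 6.24 in PAC at 3 weeks, both below the 7.26 and 7.46 of sham RV (-1.20 ± 0.52, adjusted p = 0.156). Array 2 was again the higher one, in 36 of the 39 genes, and it is the array with high Bmp10. Without it 0 genes passed as well, and Ccr2 was 0.48 above sham on array 1. With PAC 1 week array 1 or array 2 left out, which leaves 1 array in that group, more of the 39 genes passed. More of all genes passed in these fits too.

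At 6 weeks after the clip, 0 genes rose and 1, Timd4, fell, against 9.25% of all genes that passed (5.52% higher and 3.73% lower). Timd4 had 6.23 and 6.11 in PAC at 6 weeks, against 6.60 and 6.47 in sham RV. Both PAC arrays lay below both sham arrays, and the difference was -0.36 ± 0.09 (0.777-fold, adjusted p = 0.0323). The call did not hold with cyclic loess scaling (-0.28, adjusted p = 0.07), and its adjusted p was 0.26 when PAC 6 week array 2 was left out, 0.12 with sham RV array 1 out and 0.089 with sham RV array 2 out. It was also at 0.05 or above without any 1 of the 4 LV arrays. Retnla had 6.42 and 4.75 in PAC at 6 weeks, against 7.26 and 7.46 in sham RV, a difference of -1.77 ± 0.52 that just missed the threshold (adjusted p = 0.0577). It passed without PAC 6 week array 1 and without either PAC 1 week array, and its difference on PAC 6 week array 1 alone was -0.94. Cd163 had 8.17 and 7.54 in PAC at 6 weeks, against 8.47 and 8.15 in sham RV, with overlapping arrays (-0.45, adjusted p = 0.153), and it passed without PAC 6 week array 1. Folr2 had 7.81 and 7.45 in PAC at 6 weeks, against 7.91 and 7.78 in sham RV. Lyve1 had 8.61 and 8.28 in PAC at 6 weeks, against 8.53 and 8.38 in sham RV, on either side of sham.

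The recruited genes were near sham by 6 weeks. Ccr2 had 6.52 and 6.56 in PAC at 6 weeks, against 6.59 and 6.51 in sham RV, so that the groups overlapped. Itgam had 6.87 and 6.76 in PAC at 6 weeks, against 6.65 and 6.66 in sham RV. Chil3 had 3.05 and 3.27 in PAC at 6 weeks, both above the 2.73 and 2.87 of sham RV, and Plac8 had 4.01 and 4.05, both below the 4.16 and 4.11 of sham RV. Cx3cr1 stayed furthest above sham, with 7.47 and 7.56 in PAC at 6 weeks against 6.79 and 7.13 in sham RV, and did not pass (0.55 ± 0.18, adjusted p = 0.0759). The median change was 0.09 for the 39 genes and -0.05 for all genes.

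Over the 3 times, 35 of the 39 genes had their highest change at 1 week and 4 at 3 weeks, where 34.5% of all genes had theirs at 1 week. The change fell in order from 1 to 3 to 6 weeks in 31 of 39, where it did so in 18.1% of all genes. The same sham mean is subtracted at all 3 times, so this order is that of the PAC group means. It was tested only as PAC at 6 weeks against PAC at 1 week. In that comparison 0 of the 39 genes passed, against 0.0953% of all genes (0.0351% higher and 0.0602% lower), and 27 had an unadjusted p under 0.05 in limma. In 28 genes both 6-week arrays lay below both 1-week arrays, against 17.2% of all genes, and the median difference was -0.50. The 6-week mean was above the 1-week mean in 2 genes, against 52.3% of all genes. Other lists were lower at 6 weeks as well, with a median of -1.27 for 5 mesothelial genes (from -2.31 to -1.05) and of -1.08 for 4 atrial muscle genes, of which 0 passed. Their part in the macrophage result was not tested. Msr1 was nearest to the threshold (-0.96 ± 0.17, adjusted p = 0.0607), then Csf1r (-0.61, adjusted p = 0.103) and Ccr2 (-1.40 ± 0.31, adjusted p = 0.126). As each array was left out, the difference ran from -2.08 to -0.72 for Ccr2 and from -1.56 to -0.57 for Itgam. For Plac8 it ran from -0.94 to 0.02 and for Chil3 from -0.76 to 0.26.

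In the left ventricle 3 weeks after aortic clipping, 0 of the 39 genes passed and neither did any other gene (0%). The TAC mean was above sham in 20 genes, against 44.8% of all genes. The median change was 0 for the set and -0.02 for all genes, and 2 genes, Spi1 and Retnla, had an unadjusted p under 0.05 in limma. Ccr2 had 7.03 and 7.18 in TAC, against 7.06 and 7.15 in sham LV, and Itgam had 6.72 and 6.88 in TAC, against 7.04 and 6.70 in sham LV. Both recruited genes thus overlapped with sham. Retnla had 6.49 and 6.14 in TAC, against 8.17 and 7.07 in sham LV, the largest difference of the set here (-1.30 ± 0.52, adjusted p = 0.985). Cd163 had 8.19 and 8.15 in TAC, both below the 8.42 and 8.45 of sham LV (-0.26, adjusted p = 0.985), and Timd4 had 6.46 and 6.40, both below the 6.54 and 6.51 of sham LV. Both obstructed arrays were below both sham arrays for Retnla in PAC at 1, 3 and 6 weeks and in TAC, and its call passed in 0 of these 4 comparisons.

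The PAC response at 3 weeks was set against the TAC response at 3 weeks with an interaction term. None of the 39 genes passed, as for all genes (0%), and 3 had an unadjusted p under 0.05 in limma. The difference was above 0 in 32 genes, against 46.9% of all genes, with a median of 0.30. Mrc1 had the smallest p (0.44 ± 0.17, adjusted p = 0.39), before Stab1 (0.44, adjusted p = 0.412) and Gpnmb (0.59, adjusted p = 0.414). For Ccr2 the PAC response exceeded the TAC response by 0.62, with a 95% interval from -0.36 to 1.60, so responses of equal size and PAC responses well above TAC both lay within the error. In the absence of obstruction, 0 of the 39 genes differed between sham RV and sham LV (0.411% of all genes, 0.0752% higher and 0.336% lower), and 2 had an unadjusted p under 0.05 in limma. The sham RV mean was above the sham LV mean in 8 genes, against 54.7% of all genes. Both sham RV arrays lay below both sham LV arrays in 20 genes, against 26.1% of all genes, and Clec7a came nearest (-0.33, adjusted p = 0.129). Ccr2 had 6.59 and 6.51 in sham RV, against 7.06 and 7.15 in sham LV, so its sham RV level was also below the 7.03 and 7.18 of TAC.

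Further lists give the surroundings of these genes at 1 week in PAC against sham RV. Over all genes 9.57% rose, 8.86% fell and the median was -0.05. Of 38 other phagocyte genes measured, 15 rose (39.5%) and 0 fell, with a median of 0.58. Among them the Toll-like receptors Tlr4 (1.36 ± 0.20, adjusted p = 0.00634) and Tlr7 (1.21 ± 0.23, adjusted p = 0.0124) changed most, with Mpeg1, a pore-forming protein of macrophages (1.32 ± 0.27, adjusted p = 0.0148), and the lectin receptor Clec4n (1.30). Tlr4 also rose at 3 weeks (1.39) and 6 weeks (1.86), when the recruited genes did not pass. Its sham RV levels of 7.74 and 7.69 lay below the 8.76 and 8.8 of sham LV. In PAC at 3 weeks Tlr4 had 8.89 and 9.32, against 9.18 and 9.39 in TAC. Of 17 genes of monocyte attraction and adhesion, 2 rose (11.8%, near the share of all genes), the Ccr2 ligand Ccl12 (1.30 ± 0.35, adjusted p = 0.0338) and the endothelial selectin Sele (0.98 ± 0.15, adjusted p = 0.00736). Ccl12 had 6.08 and 7.49 in PAC at 1 week, against 5.45 and 5.54 in sham RV, and like Ccr2 was far higher on array 2. Of 11 macrophage transcription factors, 1 rose (9.09%, also near it), Zeb2 (0.38 ± 0.11, adjusted p = 0.0447). Of 15 effector and cytokine genes, 5 rose (33.3%), which were Fn1, Arg1, Hmox1, Tgfb1 and Il6. Some of these signals were dim, since Il6 lay below the median of unlisted probe sets on 12 arrays and Arg1 on 10. Fn1, the matrix protein fibronectin, rose most (2.41 ± 0.43, adjusted p = 0.0107), and fibroblasts make it too. At 3 and at 6 weeks Sele and the chemokine Cxcl12 rose, 2 of the 17 attraction and adhesion genes (11.8%) each time. Over all genes 3.22% rose at 3 weeks and 5.52% at 6 weeks.

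Markers of other leukocytes passed higher at 1 week in 1 gene, Kit. Of 12 neutrophil genes, which share Itgam with monocytes, 0 passed, and the mean level of the list was 4.72 and 4.71 in PAC at 1 week, against 4.77 and 4.91 in sham RV, with 8 of the 12 at dim levels on every array. Of 8 T cell genes 4 fell (Cd3e, Cd3g, Cd8a and Cd8b1; 50%) and 0 rose, and of 7 dendritic cell genes 2 fell (Zbtb46 and Ccr7; 28.6%), where 8.86% of all genes fell. The T cell signals were dim too, with a list mean of 5.37 and 5.32 in PAC at 1 week, against 5.62 and 5.70 in sham RV, and Cd3g was below the median of unlisted probe sets on 12 arrays, Cd8b1 on 9 and Cd8a on 5. None of 5 B cell and 5 NK cell genes passed. Kit rose (0.90 ± 0.11, adjusted p = 0.0031) as 1 of 6 mast cell genes. Of 5 mesothelial genes, Msln and the dim Muc16 rose, and the list's mean level was 7.60 and 6.87 in PAC at 1 week, against 6.81 and 6.12 in sham RV. Of 5 lymphatic endothelial genes, a cell type that shares Lyve1, Pdpn rose (0.81 ± 0.22, adjusted p = 0.0325) and Mmrn1 fell (-3.39 ± 0.24, adjusted p = 0.000649). Mmrn1 had 4.04 and 3.88 in PAC at 1 week, against 7.40 and 7.28 in sham RV, and lay between 7.08 and 7.96 on the other arrays. The part of the mesothelial and lymphatic genes in the macrophage results was not tested.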

How the data were processed

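Total RNA of 12 ventricle samples was hybridised to Affymetrix arrays. The values are the log2 intensities deposited by the authors, made with RMA in Affymetrix Power Tools per the submitters' processing notes (version and genome build not given in the sources used here). They were used as deposited. RMA sets all arrays to one distribution and so hides a change of total RNA. Of 35556 probe sets, 21789 were listed with 1 gene, 1621 with several and 12146 with none; where a gene had several probe sets (999 genes, none of the 39) the one with the highest mean was kept, which gave 19938 genes. Arrays were grouped by their labels. Group means were fitted to 12 arrays with limma 3.58.1 in R 4.3.3 (6 residual and 4.6 prior degrees of freedom), 7 comparisons were made, and p-values were adjusted by Benjamini-Hochberg over all genes within each. With 2 arrays a group, the smallest p of an exact permutation test is 0.33. The 39 genes and the further lists were chosen with earlier results of these data known. Values on each array are given for the recruited and resident genes and for up to 12 other genes that passed, with the smallest p; a few others were added after their values were seen. From the further lists, genes with the largest changes among those that passed were named. Whether equal replicate numbers pair arrays was checked over 15 pairs of groups: deviations correlated between -0.24 and 0.37, over 0.1 in 5, so no pairing was used. The alternatives were cyclic loess scaling, the mean over probe sets, a filter on genes whose mean was under the median level of 6.74, a trended and robust variance prior, a replicate block, only the arrays compared, and leaving out each array. Promoter windows are from RefSeq on GRCm38.p6.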

Additional observations from a re-analysis of the deposited data

Results flagged for a closer look

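For 4 genes, both PAC arrays at 3 weeks lay above both sham RV arrays while both TAC arrays lay below both sham LV arrays. They are Fcgr3, Fcgr2b, Clec7a and Gas6, or 10.3% of the 39 genes, where 3.28% of all genes had this pattern. In all 4 genes both sham RV arrays also lay below both sham LV arrays, as in 26.1% of all genes. The sham RV less sham LV difference was -0.28 for Fcgr3, -0.25 for Fcgr2b, -0.33 for Clec7a and -0.19 for Gas6. It passed for none of these genes, and its part in the pattern was not tested. Probes for Fcgr3 and Fcgr2b may read part of each other's transcript. The PAC response less the TAC response was 0.42 for Fcgr3, 0.48 for Fcgr2b, 0.30 for Clec7a and 0.39 for Gas6 on the log2 scale. The interaction term gave adjusted p-values of 0.422, 0.418, 0.441 and 0.434 in limma, so the difference between the chambers did not pass for any of them. Each group held 2 arrays, too few to look for a single array apart from its group.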

How the results depend on the processing

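Of 1128 results of single genes under an alternative, 978 stayed on their side of the threshold in the same direction, 135 no longer passed, 15 passed newly and 0 reversed. Many of the 1128 had not passed to begin with, so these counts are not a measure of how often a call held. Only the 21 calls at 1 week and the call of Timd4 at 6 weeks could be lost. With cyclic loess, 16 of the 21 calls at 1 week held. With only the arrays compared, the number of the 39 genes that passed was 0 for PAC at 1 week, 3 at 3 weeks and 0 at 6 weeks, against 21, 0 and 1. Over all genes these fits passed 89, 1090 and 1020, against 3675, 1148 and 1844. Without genes below the median level or with the trended prior it was 2 at 3 weeks; with cyclic loess 0 at 6 weeks; with the trended prior 2 for PAC at 6 weeks less PAC at 1 week. With the replicate block it was 20 at 1 week, 0 at 3 weeks and 2 at 6 weeks (Timd4 and Retnla), and the block changed no other count of the 39 genes. Leaving out each array gave 2 to 27 at 1 week, 0 to 6 at 3 weeks, 0 to 3 at 6 weeks, 0 to 21 for PAC at 6 weeks less 1 week, and 0 to 1 for sham RV less sham LV. The recruited median for PAC at 6 weeks less 1 week was -1.23 without genes below the median level, which leaves Ccr2 and Itgam alone, and -1.25 to -0.28 over the arrays left out. The resident median ran from 0.09 to 0.36 at 1 week, -0.19 to 0.01 at 3 weeks, -0.43 to -0.14 at 6 weeks and -0.71 to -0.20 for 6 weeks less 1 week; the recruited median ran from 0.41 to 1.42, 0.15 to 0.75 and 0.06 to 0.09 in PAC at 1, 3 and 6 weeks. Over all genes, PAC at 1 week passed 3675 and with loess 2143, only the arrays compared 89 and each array left out 227 to 4557; at 3 weeks 1148, with loess 557 and arrays left out 3 to 2070; at 6 weeks 1844, with only the arrays compared 1020 and arrays left out 3 to 2656; for 6 weeks less 1 week 19, with the trended prior 83, without genes below the median level 32, replicate block 11, only the arrays compared 1 and arrays left out 1 to 488; for sham RV less sham LV 82, with loess 52, without genes below the median level 871, trended prior 723, only the arrays compared 6 and arrays left out 0 to 252. The number that passed both rose and fell as arrays were left out, and the cause was not tested.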
